A study of Mus musculus with 8 samples.

Results

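The MYC network is a set of transcription factors that share the protein MAX as their partner, and 9 of its genes were followed here in the distal tips of the embryonic mouse lung: *Myc*, *Mycn*, *Max*, *Mxd1*, *Mxd3*, *Mxd4*, *Mxi1*, *Mnt* and *Mlx*. They were chosen by name as members of the family, and all 9 were found among the 18996 genes analysed on the array. Distal lung tips of wild type embryos at E12.5 were dissected with their mesenchyme and mesothelium, treated with dispase, and separated with needles into epithelium and mesenchyme. The strain is C57bl/6J in the labels and BALb/c in the series description, which speaks of 4 embryonic mice, and the labels name organ homogenate as the source. RNA of 4 epithelium and 4 mesenchyme samples was hybridised to 4 arrays of 2 colours, each with 1 sample of either tissue, and no embryo was treated or carried a transgene. On every array the epithelium carried Cy3 and the mesenchyme Cy5, so dye and tissue cannot be told apart, and a difference between the dyes would be part of every difference below. As the tissues are mixtures of cells, fewer cells of a type and less RNA per cell cannot be told apart either.

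MYC and MYCN bind DNA as heterodimers with MAX at the E-box CACGTG and activate genes of ribosome production, metabolism and the cell cycle. MXD1, MXI1, MXD3, MXD4 and MNT compete for MAX, bind the same sites and repress them through SIN3 and histone deacetylases. MLX, a relative of MAX, pairs with some of these repressors and with the glucose-responsive factors MLXIP and MLXIPL. In the mouse lung, *Mycn* is known for its expression in the distal epithelium and for its role in the growth of the tips.

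The promoters of the members are shown for the site that the network itself binds. Of the 9 genes, 8 had an entry in the RefSeq promoter table of build GRCm38.p6, which holds 300 bases for each start site, 250 before it and 50 from it on, and *Myc* was not looked up elsewhere. The E-box CACGTG, which reads the same on both strands, was present in 4 of the 8 (*Max*, *Mnt*, *Mlx* and *Mxd4*). Its share was 8.09% of 27025 genes with a promoter and 9.67% of the 15238 genes with a promoter that were analysed on the array. A motif bound by the E2F factors of the cell cycle, TTTNGCGC on either strand, was present in 1 of the 8, *Mycn*. Its share was 1.57% of all genes with a promoter and 2.19% of those analysed. In *Mycn* it matched 3 times, and the first 2 matches overlap on opposite strands. The promoters of *Mycn* (chr12:12941787-12942086, minus strand), *Mxd3* (chr13:55329682-55329981, minus strand) and *Max* (chr12:76962199-76962498, minus strand) are given whole, because the first 2 had the largest differences among the members with an entry and the last is the shared partner. For *Mnt* (chr11:74830781-74830826, plus strand), *Mlx* (chr11:101087230-101087275, plus strand) and *Mxd4* (chr5:34187904-34187949, minus strand) 46 bases around the E-box are given. Capitals mark the matches, 5′ to 3′.
Mycn: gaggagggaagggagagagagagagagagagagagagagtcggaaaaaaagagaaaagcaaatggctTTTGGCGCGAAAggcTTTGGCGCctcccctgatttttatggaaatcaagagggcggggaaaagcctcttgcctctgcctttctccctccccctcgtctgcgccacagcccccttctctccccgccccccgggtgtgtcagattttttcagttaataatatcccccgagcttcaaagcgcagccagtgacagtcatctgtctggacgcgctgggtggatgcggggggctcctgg
Mxd3: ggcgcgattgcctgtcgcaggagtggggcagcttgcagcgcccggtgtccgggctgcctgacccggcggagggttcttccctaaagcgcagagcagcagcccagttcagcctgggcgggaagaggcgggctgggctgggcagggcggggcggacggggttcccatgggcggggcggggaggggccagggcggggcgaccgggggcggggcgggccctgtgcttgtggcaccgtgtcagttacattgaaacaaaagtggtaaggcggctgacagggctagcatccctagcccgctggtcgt
Max: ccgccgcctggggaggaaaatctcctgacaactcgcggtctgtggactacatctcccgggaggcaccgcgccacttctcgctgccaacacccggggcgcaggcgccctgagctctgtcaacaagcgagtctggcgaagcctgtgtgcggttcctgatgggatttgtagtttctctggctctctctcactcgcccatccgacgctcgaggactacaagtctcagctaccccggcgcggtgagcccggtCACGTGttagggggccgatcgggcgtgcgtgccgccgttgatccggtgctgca
Mnt: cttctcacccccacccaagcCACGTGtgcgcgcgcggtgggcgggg
Mlx: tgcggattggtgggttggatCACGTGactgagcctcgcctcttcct
Mxd4: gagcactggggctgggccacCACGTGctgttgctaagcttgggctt
The E-box of *Max* covers bases 248 to 253 of its window and so lies across the start site of that window, which is base 251. The windows of *Max*, *Mxd3*, *Mnt* and *Mlx* are built on a start site inside the RefSeq extent of the gene. The *Mxd3* window held neither motif. A match describes the letters only and does not show that a factor binds there.

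Of the 9 members, *Myc* and *Mxd3* were higher in the mesenchyme, *Mycn* was higher in the epithelium, and the other 6 did not pass the test. The 3 genes called make up 33.3% of the members, beside 45.9% of all genes called in either direction at an adjusted p under 0.05 from limma (21.2% higher in the epithelium and 24.8% higher in the mesenchyme), so the number of calls is no result about the members. Each of the 3 had a log2 difference of 1 or more in size, which 13.9% of all genes reached with a call. The median log2 difference of the members was -0.11, beside -0.03 over all genes. Every value is a deposited log2 signal, normalized between samples by the authors, every difference is epithelium minus mesenchyme, and n = 4 samples of each tissue throughout.

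**Figure D1:**
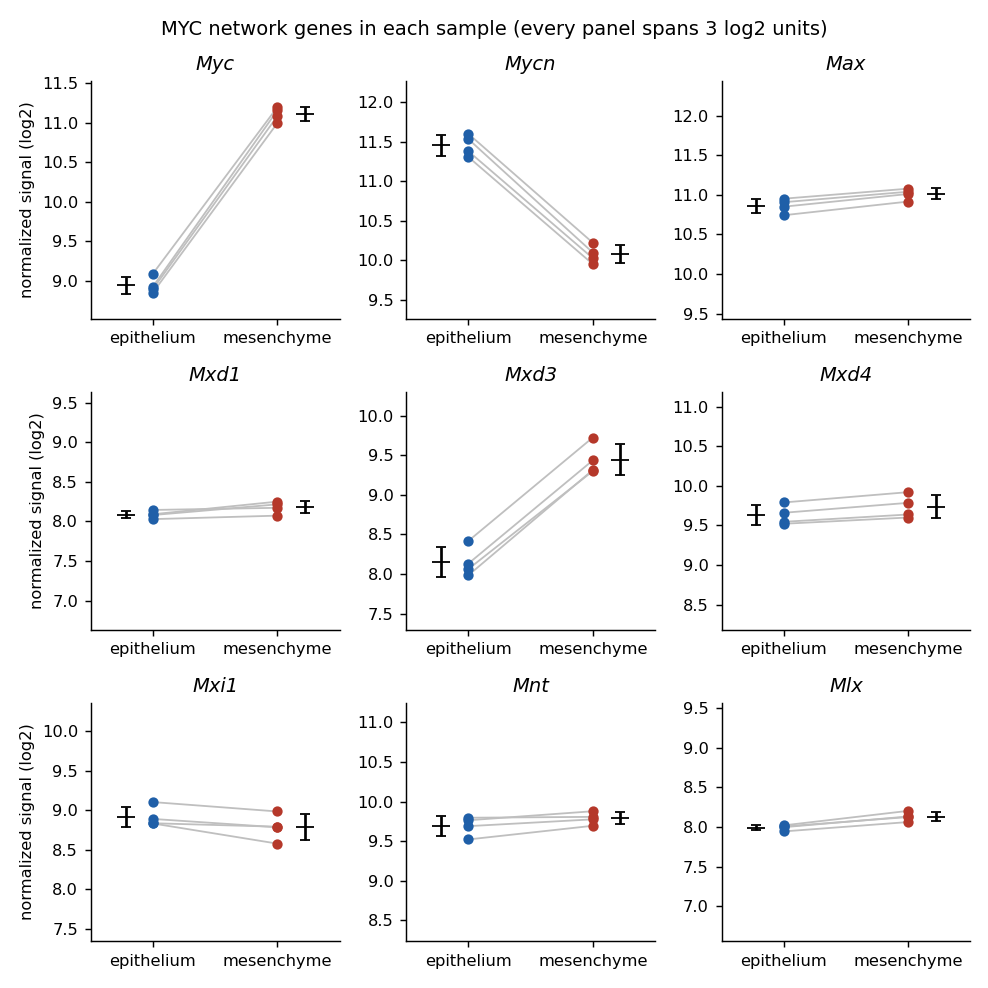
Normalized log2 signal of the 9 genes in each sample, with epithelium in blue, mesenchyme in red, grey lines joining the samples of 1 array, and bars giving the mean ± SD of 4 samples. *Myc* and *Mxd3* rise from epithelium to mesenchyme and *Mycn* falls on all 4 arrays, while the other 6 genes change by less than 0.3 on each array.

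*Myc*, the founding member of the family and a driver of growth and cell cycle entry (chr15:61985341-61990361 in RefSeq's GRCm38.p6, as are the positions below), was 4.48-fold higher in the mesenchyme. Its signal on arrays 1 to 4 was 8.93, 8.85, 8.90 and 9.09 in the epithelium samples against 11.15, 10.99, 11.08 and 11.19 in those of mesenchyme. The groups lay far apart, with means of 8.94 ± 0.10 (SD, n = 4) and 11.11 ± 0.09 (SD, n = 4). The log2 difference was -2.16 (SE 0.07, 95% interval -2.33 to -2.00, adjusted p = 3.16e-08 from limma), and the size of this difference exceeded that of 95.5% of genes.

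The array held 12 spots for *Myc*, some of which may be replicates of the same probe, and all 12 passed the test towards the mesenchyme. Over the spots the log2 difference lay between -2.22 and -1.98 (median -2.17). The dimmest spot, at a mean signal of 6.55, gave -1.98, and the other 11 lay between -2.22 and -2.10. Among those 11 spots the signal within a single sample varied with an SD of 0.26 to 0.37, above the SD of 0.10 and 0.09 between samples at the brightest spot. The difference between the tissues on 1 array hardly depended on the spot, with 44 values between -2.30 and -1.97 over these spots and arrays.

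*Mycn*, the paralog of *Myc* with a restricted expression in embryonic tissues (chr12:12936093-12941836), had the opposite sign. Its signal was 11.53, 11.60, 11.38 and 11.30 in the epithelium samples against 10.10, 10.22, 10.03 and 9.95 in those of mesenchyme. The lowest epithelium sample lay above the highest mesenchyme sample by about 1 on the log2 scale. The log2 difference was 1.38 (SE 0.09, 95% interval 1.18 to 1.58, adjusted p = 1.88e-06 from limma), or 2.60-fold more signal in the epithelium. Its dimmer probe, with a mean signal of 6.33, gave 1.27 (adjusted p = 5.57e-06 from limma over all probes). By array the difference of the brightest probe was 1.43, 1.38, 1.35 and 1.35. The dimmest 30% of genes lie under a level of 3.31. The mesenchyme signal of *Mycn* and the epithelium signal of *Myc* were well above that level. Marker genes of the opposite tissue also lay above it on average. The mean over 10 epithelial marker genes was 7.469 to 7.999 in the mesenchyme samples. Over 10 mesenchymal marker genes the mean was 7.70 to 7.77 in the epithelium samples. A signal above the level therefore does not show that cells of both tissues express *Myc* and *Mycn*, which was not tested.

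**Figure D2:**
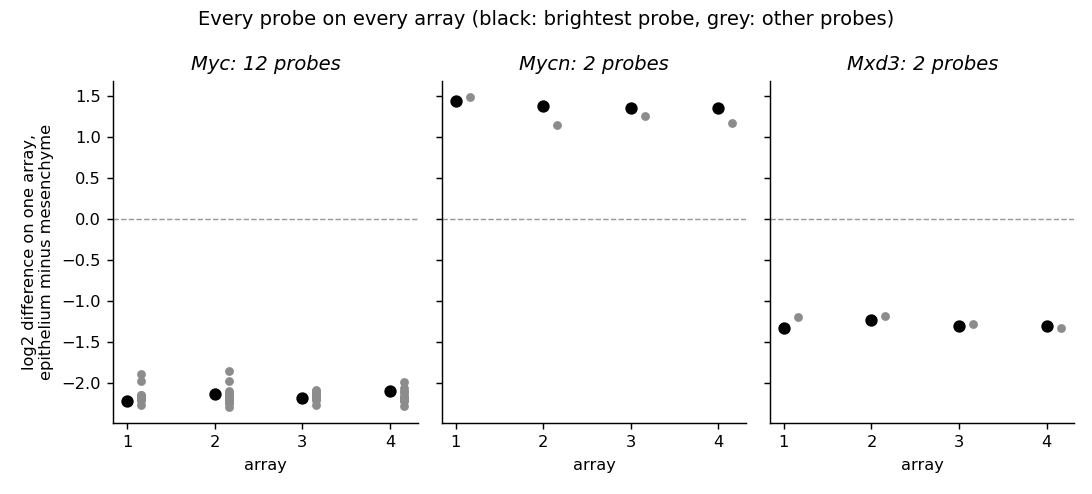
Log2 difference, epithelium minus mesenchyme, of every probe of *Myc*, *Mycn* and *Mxd3* on each of the 4 arrays. All 48 *Myc* values lie between -2.30 and -1.86, the *Mycn* probes are above 1 and the *Mxd3* probes are below -1 on every array.

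MAX is the obligate partner of MYC and MYCN, and its gene differed little between the tissues. The signal of *Max* (chr12:76937269-76962323) was 10.91, 10.95, 10.85 and 10.74 in the epithelium samples against 11.04, 11.08, 11.01 and 10.91 in those of mesenchyme, so the ranges overlapped, although the mesenchyme was higher on each array. The log2 difference of -0.15 (SE 0.06, 95% interval -0.30 to 0.00, adjusted p = 0.0982 from limma) did not pass the test. The related gene *Mlx* (chr11:101086707-101092207) had signals of 7.998, 8.020, 7.944 and 8.006 in the epithelium, and the mesenchyme samples gave 8.133, 8.204, 8.062 and 8.126. These groups did not overlap, but the difference of -0.14 (SE 0.05, adjusted p = 0.0568 from limma) missed the threshold, and the other probe of *Mlx*, among the dimmest 30% of signals, gave 0.03. In all, 4 of the 9 members had groups that did not overlap, beside 44.3% of all genes.

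Among the MAX-binding repressors, *Mxd3* (chr13:55325170-55329900) was the exception in size. MXD3 is known in mouse cells as the MXD protein that is made in S phase. Its signal was 7.98, 8.06, 8.42 and 8.13 in the epithelium samples against 9.31, 9.30, 9.72 and 9.43 in those of mesenchyme. Both samples of array 3 were the highest of their tissue, and the differences by array were close to each other at -1.33, -1.24, -1.31 and -1.30. *Mxd3* thus had 2.45-fold more signal in mesenchyme (log2 difference -1.29, with an SE of 0.12 and limma's adjusted p = 3.11e-05), and its other probe gave -1.25 (adjusted p = 8.20e-07 from limma over all probes).

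At their brightest probes the other repressor genes differed by 0.13 or less in either direction, and none passed the test. *Mxd1*, which rises with differentiation in many lineages, spanned 8.03 to 8.14 in epithelium samples and 8.07 to 8.25 in mesenchyme samples (log2 difference -0.09, 95% interval -0.22 to 0.04). Its other probe, at a mean signal of 3.69, gave -0.45 (adjusted p = 0.0423 from limma over all probes). *Mxi1*, which encodes a further MAX-binding repressor, was the only member besides *Mycn* with a higher mean in the epithelium, at 8.83 to 9.10 against 8.58 to 8.98 (0.13, 95% interval -0.10 to 0.36). *Mxd4* spanned 9.52 to 9.79 in the epithelium and 9.60 to 9.92 in the mesenchyme (-0.11, 95% interval -0.32 to 0.10), with 0.01 and -0.49 for its other probes, the latter at a signal among the dimmest 30%. *Mnt*, whose product is the most widely expressed of these repressors, spanned 9.52 to 9.80 and 9.69 to 9.88 (-0.10, 95% interval -0.27 to 0.08). At the brightest probes of these 4 genes the intervals leave room for differences of up to 0.36 on the log2 scale. The -0.45 and -0.49 of other probes of *Mxd1* and *Mxd4* lie beyond that.

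**Figure D3:**
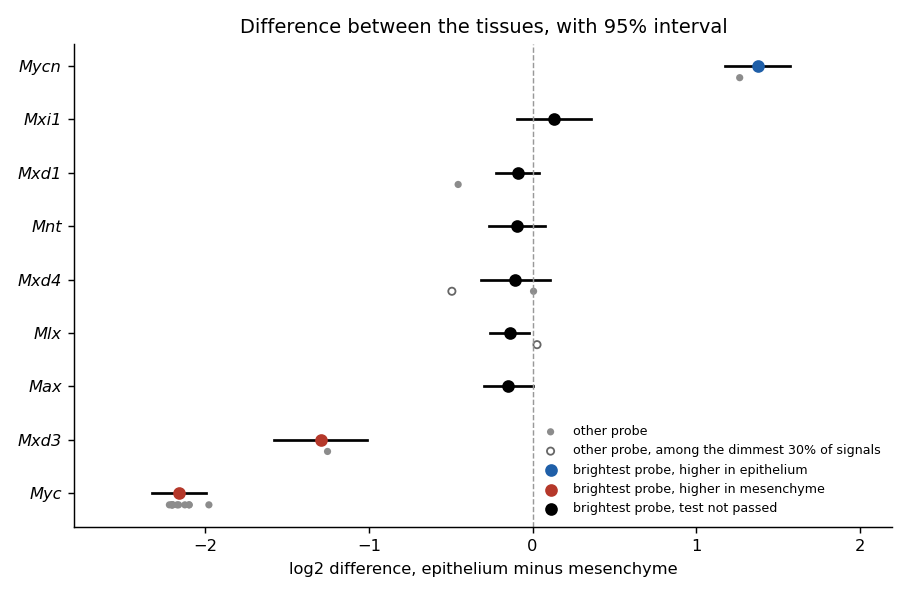
Log2 difference between the tissues for the brightest probe of each gene (large points) with its 95% interval from limma, and for the other probes (small grey points, open where the signal is among the dimmest 30%). *Myc* and *Mxd3* lie below -1, *Mycn* lies above 1, and the intervals of the other 6 genes lie between -0.32 and 0.36.

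Samples of the same array moved together, and taking the array as a replicate block narrowed the errors of all 9 members. In this fit limma called 6 members, *Mycn* on the side of the epithelium and 5 on that of the mesenchyme, against 57.4% of all genes. The calls added were *Max* (adjusted p = 0.00662), *Mlx* (adjusted p = 0.0100) and *Mxd4* (adjusted p = 0.0206), each higher in the mesenchyme by 0.15 or less on the log2 scale. For each of the 9 members the sign was the same on all 4 arrays, that is, within each array that held both tissues. This also held for uncalled genes of the lists below, such as *Ruvbl2* and *Aurka*. The share of all genes with the same sign on all arrays is not given here, so the sign is no result about the members.

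The genes most like *Myc* over the 8 samples by Pearson's r were *Gsto1* (0.9996), *P3h3* (0.9992) and *Tmtc2* (0.9992), with log2 differences of -2.06, -1.65 and -1.42. The dimmest of 4 probes of *Tmtc2* gave 0.11. Those most like *Mycn* were *Fmnl2* (0.9996), *Sdc1* (0.9993) and *Rpp21* (0.9987), with differences of 0.95, 0.87 and 0.58. As the samples form a group for each tissue, r over all 8 mainly follows the difference between the tissues, and 757 genes reached an r above 0.99 with *Myc* and 247 with *Mycn*.

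Of the wider network, *Mycl*, *Mga*, *Mlxip* and *Mlxipl* were analysed, and all but *Mlxip* passed towards the epithelium. That is 75% of 4 genes, beside 45.9% of all genes called in either direction and 21.2% higher in the epithelium. *Mlxipl*, which encodes the carbohydrate-responsive partner of MLX known as ChREBP, had signals of 6.96, 6.91, 6.92 and 6.97 in the epithelium samples against 4.58, 4.56, 4.25 and 4.25 in those of mesenchyme. The epithelium thus had 5.78-fold more signal (log2 difference 2.53, with an SE of 0.09 and limma's adjusted p = 4.53e-08), with 0.64 for its dim probe. *Mycl*, the third MYC paralog, differed by 0.26 (SE 0.06, adjusted p = 0.00844 from limma) and *Mga*, which encodes a MAX-binding repressor of germline genes, by 0.26 (SE 0.07, adjusted p = 0.0191 from limma). The dimmest of the 3 probes of *Mga* gave -0.35, and without array 2 neither *Mycl* nor *Mga* passed, which left 1 gene. *Mga* also missed the threshold without array 1, array 4 or mesenchyme sample 4. *Mlxip*, which encodes MondoA, differed by -0.02 (adjusted p = 0.816 from limma).

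Genes listed for the turnover of MYC proteins or as their interactors fell on both sides. Of 13 such genes, 3 passed towards the epithelium and 5 towards the mesenchyme (61.5% called beside 45.9% of all genes, median -0.10). *Fbxl14*, which encodes a ubiquitin ligase subunit, had the largest difference towards the epithelium (0.80, SE 0.09), followed by the ubiquitin ligase gene *Huwe1* (0.34, SE 0.08). *Bin1*, which encodes a MYC-interacting adaptor (-0.47, SE 0.05), and *Skp2*, which encodes a ubiquitin ligase subunit of the cell cycle (-0.32, SE 0.05), were higher in the mesenchyme. For *Fbxl14* and *Skp2* only 1 of 2 probes each passed, and the dimmer ones gave 0.47 and -0.15. Only 1 of 7 probes of *Huwe1* passed the test, and it missed the threshold without array 2. The counts were then 1 and 3, and 3 were also left towards the mesenchyme without array 3, array 4, epithelium sample 2 or mesenchyme sample 2.

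Of the coactivators recruited by MYC, 1 of 11 passed in each direction (18.2% called beside 45.9% of all genes). These were *Trrap*, a scaffold of histone acetyltransferases (0.23, SE 0.07, adjusted p = 0.0318 from limma), and the ATPase gene *Ruvbl1* (-0.33, SE 0.06, adjusted p = 0.00301 from limma). With the array as a replicate block the counts were 4 and 3, beside 57.4% of all genes called. The 3 probes of *Trrap* lay between 0.06 and 0.23, and only 1 of them passed. *Trrap* did not pass in 9 of the 12 fits that left out a sample or an array, the exceptions being array 3, epithelium sample 3 and mesenchyme sample 4. Of the corepressors that MXD proteins recruit, 4 of 11 passed towards the epithelium and 3 towards the mesenchyme (63.6% called beside 45.9% of all genes, median 0.03). The deacetylase genes *Hdac1* and *Hdac2* differed by 0.50 (SE 0.06) and -0.41 (SE 0.07), and the scaffold gene *Sin3b* by -0.39 (SE 0.09). Only 1 of 2 probes of *Hdac2* and 1 of 3 of *Sin3b* passed, and both genes lost their call with the most variable probe. The demethylase gene *Kdm5a* differed by 0.53 (SE 0.05), while the dimmest of its 4 probes gave -0.44, and its call was lost with the mean of all probes.

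Genes that MYC proteins are known to induce lay on both sides. Among 35 such genes, 10 passed towards the epithelium and 7 towards the mesenchyme, while 18 missed the threshold, which is 48.6% called beside 45.9% of all genes, with a median of 0.06. The transferrin receptor gene *Tfrc* differed by 2.10 (SE 0.06, adjusted p = 1.03e-08 from limma), with 2.10 to 2.24 over its 10 spots, and the folate enzyme gene *Mthfd1* by 0.67 (SE 0.07). Towards the mesenchyme the spermidine synthase gene *Srm* (-0.54, SE 0.05) and the nucleolar gene *Nop16* (-0.49, SE 0.06) had the largest differences. Apart from *Tfrc*, no gene of this list differed by 1 or more. With the array as a replicate block 13 passed on the epithelial side and 11 on the mesenchymal side, and with the most variable probe of each gene the counts turned to 7 and 10. Of the genes listed, 32 had a promoter entry, among them *Gnl3* and *Impdh2*, which were not analysed. The E-box was present in 11 of the 32, or 34.4%, beside 9.67% of the genes analysed that had an entry.

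Among 10 genes that MYC proteins are known to repress, 6 passed towards the epithelium, 2 towards the mesenchyme and 2 in neither direction (80.0% called beside 45.9% of all genes, median 0.39 beside -0.03). *Thbs1*, which encodes the matrix protein thrombospondin, differed by 3.86 (SE 0.06, adjusted p = 1.20e-09 from limma), while the dimmest of its 3 probes gave 2.90, and *Ndrg2* by 1.21 (SE 0.05). *Ndrg1* (-0.55, SE 0.06) and the stress gene *Gadd45b* (-0.36, SE 0.07) were higher in the mesenchyme. The E-box was present in 1 of the 7 genes of this list with a promoter entry. This 14.3%, beside 9.67% of the genes analysed that had an entry, rests on 1 gene and is no result about the list.

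S phase genes, listed because of the timing of MXD3, also lay on both sides. Among 12 such genes, 3 passed towards the epithelium and 4 towards the mesenchyme (58.3% called beside 45.9% of all genes), with a median of -0.07 and no difference of 1 or more. The helicase gene *Mcm6* (0.36, SE 0.08) and the proliferation marker gene *Mki67* (0.24, SE 0.05) were higher in the epithelium, and the cyclin gene *Ccne1* (-0.62, SE 0.07) was higher in the mesenchyme. *E2f1*, which encodes a factor of S phase entry, gave -0.38 (SE 0.07, adjusted p = 0.00133 from limma) with its brightest probe, but 10 of its 11 spots leaned towards the epithelium, by up to 0.31, so its direction depends on the probe.

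**Figure D4:**
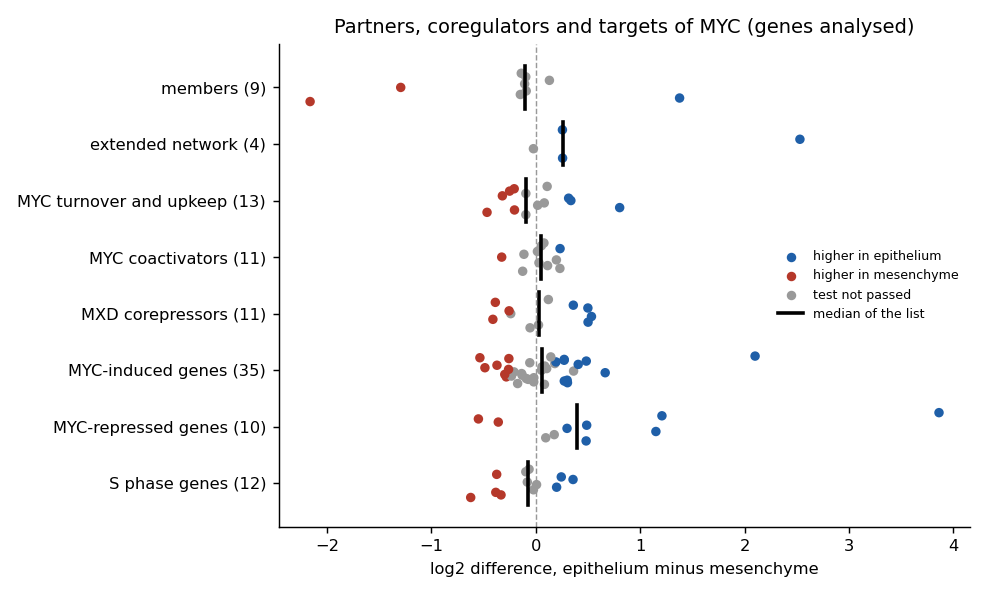
Log2 difference, epithelium minus mesenchyme, of each gene analysed in the MYC network and in lists of its regulators, cofactors and targets, with the number of genes in parentheses and a bar at the median. Medians lie between -0.11 and 0.39, and *Mlxipl*, *Tfrc* and *Thbs1* lie above 2.

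The tissues matched their labels by their defining markers. All 10 epithelial genes, such as *Cdh1* (6.15) and *Epcam* (4.28), were higher in the epithelium, and all 10 mesenchymal genes, such as *Tbx4* (-2.13), in the mesenchyme. Markers of further cell types also differed between the tissues. The mean log2 signal in the epithelium and mesenchyme samples was 5.55 to 5.92 and 9.19 to 9.26 over the 8 endothelial genes, 7.41 to 7.50 and 10.24 to 10.38 over 8 erythroid genes, 5.78 to 5.91 and 7.57 to 7.68 over 7 leukocyte genes, and 5.13 to 5.26 and 7.02 to 7.07 over 6 mesothelial genes. Of these, 8 endothelial, 7 erythroid, 7 leukocyte and 4 mesothelial genes were higher in the mesenchyme, as were *Myc* and *Mxd3*, while the mesothelial genes *Krt19* (1.71) and *Msln* (2.44) were higher in the epithelium. The smooth muscle list of 6 genes (11.41 to 11.54 and 9.01 to 9.20) and the neural list of 5 genes (5.90 to 6.01 and 4.23 to 4.33) lay on the side of *Mycn*, with 5 genes of each higher in the epithelium. The part of these cells in the differences of the members was not tested.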

How the data were processed

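Deposited values were normalized log2 signals, 1 per feature and sample. The authors made them in limma by a normexp background correction on negative control spots (offset 1), a log transform and quantile normalization, with each channel handled as a sample of its own. The methods speak of hybridising Cy3-labelled material, and the labels name Cy5 for the mesenchyme. The methods do not name the log base of the table. Base 2 was taken from the log2 fold changes in which the study gives this comparison and from the highest value of each sample (15.88). Quantile normalization makes the distributions of the samples alike, so values are relative within a sample. In the deposited values they were only nearly alike, with medians over all features from 4.054 to 4.143. After a repeated quantile normalization *Max* and *Mlx* gave -0.11 each. Averaging of replicate spots is named in the methods, but genes such as *Myc* have several features in the table, and each was taken as a probe.

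Of 45220 features, 33653 had a single gene in the platform annotation, and 33517 of these were found in RefSeq's genes for GRCm38.p6 with no change of symbol. The 56 features with several genes and the 523 with a missing value were left out. The probe with the highest mean stood for each of 18996 genes. The test was limma's moderated one (version 3.58.1, R 4.3.3), unpaired and two-sided, with Benjamini-Hochberg adjustment over all genes. Other probes were tested in a fit over all probes. The number of arrays limits the precision. Nothing says that the samples came from separate litters or cultures, so the p-values reflect only how these samples spread, and that spread may be technical.

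Both samples of a number come from 1 array by their labels, and their deviations from the tissue means correlated across genes at 0.347, 0.620, 0.528 and 0.467, so the numbers pair the samples. The steps were tested on simulated data, where noise was drawn for each sample on its own and the pairing by array was left out. Far fewer genes were changed there than were called here, so the simulation does not check the calls in these data. The members and lists were chosen with earlier results of these data known. Named were all members, the wider network, up to 2 genes in each direction from the other lists with the largest differences and the same sign on all arrays, and the 3 genes most like *Myc* and *Mycn*. A few listed genes were not analysed here, and each count of calls is given over the genes analysed. Promoter counts are given over the genes listed that had an entry. Promoters came from the RefSeq table, and figures were drawn with matplotlib 3.10.9.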

Additional observations from a re-analysis of the deposited data

Results flagged for a closer look

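In 5 of 82 groups of 4 samples of the named genes, a sample lay far from the other 3 by Dixon's test, and chance flags about 1 group in 20. None of the 5 was in a member of the network. The lowest mesenchyme sample of *Fbxl14* was at 11.24 on array 3, with the next at 11.51, and that of *Trrap* was at 10.64 on array 3, with the next at 10.80. The lowest mesenchyme sample of *Ndrg2* was at 7.18 on array 4, with the next at 7.26. In the epithelium, the lowest sample of *Huwe1* was at 11.71 on array 3, with the next at 11.92, and the highest of *Skp2* was at 9.66 on array 2, with the next at 9.57.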

How the results depend on the processing

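Of 20 alternatives, 12 left out a sample or an array. *Myc* (-2.22 to -2.13), *Mycn* (1.32 to 1.43) and *Mxd3* (-1.38 to -1.20) kept their sign and their call in all 20. Leaving out samples gave 2 to 3 members higher in the mesenchyme. *Mlx* ranged from -0.162 to -0.115 and passed without mesenchyme sample 3 (adjusted p = 0.0457). With the array as a replicate block, 5 members were higher in the mesenchyme, as *Max* (-0.15), *Mlx* (-0.14) and *Mxd4* (-0.11) passed, and the block changed the counts of other lists to 4 and 3 coactivators and 11 MYC-induced genes higher in the mesenchyme. *Max* (-0.15, adjusted p = 0.0494) also passed with an intensity trend, and *Mlx* (-0.14) without the dimmest 30% of genes, where fewer genes were tested. *Mxd1* passed with the mean of all probes (-0.27) or the most variable probe (-0.45). With the most variable probe the sign turned for *Mlx* (0.0276), *E2f1* (0.31), *Kdm5a* (-0.0272) and *Mga* (-0.35), and with the mean of all probes for *E2f1* (0.13), which then passed towards the epithelium, while 2 coactivators were higher in the epithelium. *Mlxip* turned to 0.0195 after a repeated quantile normalization, and over fits without a sample it ran from -0.07198 without epithelium sample 1 to 0.00231 without epithelium sample 4. Leaving out samples gave 0 to 1 coactivators, 1 to 3 turnover genes and 1 to 3 genes of the wider network higher in the epithelium, and 3 to 4 turnover genes higher in the mesenchyme. The causes were not tested. All genes called numbered 3431 to 5035 higher in the epithelium and 3999 to 5877 higher in the mesenchyme. No scaling moved the median of all genes by over 0.1.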
